A study of Mus musculus with 2 samples.

Results

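A set of 9 genes for cytokines that act on blood cells, and for their receptors, were read in single cells of the mouse yolk sac at stage E8.75: the ligand genes Kitl, Epo, Thpo, Csf1 and Cxcl12 and the receptor genes Kit, Epor, Csf1r and Csf2rb. They were chosen by symbol, and all 9 were found among the 30970 gene rows of the deposited matrices. All animals carried Ttr-Cre/+ and R26lsl-rtTA-EGFP/+, a Cre driven from a visceral endoderm promoter together with a Cre-dependent reporter allele, so there was 1 genotype and no treatment. The study set out to compare ciliated with unciliated cell types of the yolk sac. Cells of 3 samples were labelled with CellPlex oligonucleotides before pooling and are called tagged samples 1, 2 and 3 here. The labels tie no tag to an embryo, and p-values below measure only the spread between tagged samples, which may be technical.

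The yolk sac is the first site of blood formation in the mouse. Its outer endoderm, its mesoderm and its endothelium surround blood islands in which primitive erythroid cells mature and later blood progenitors appear. Cytokine receptors of this kind either carry their own tyrosine kinase, as do Kit and Csf1r, or signal through associated Janus kinases and Stat5, as do Epor and Csf2rb.

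The deposited data held 1817 cells, with between 22007477 and 33114758 unique molecular identifiers (UMIs) per tagged sample, and no barcode was shared between tagged samples. After filtering, each tagged sample held cells with 4 or more Xist UMIs and at most 1 Y-linked UMI (181, 259 and 217). Each also held cells with 2 or more UMIs of Y-linked genes and at most 1 Xist UMI (150, 177 and 344). The design text nonetheless speaks of 3 embryos. Cells were put into 5 classes by the share of their UMIs in a few marker genes: 559 in endoderm (Ttr, Apob, Apom), 199 in mesoderm (Hand1, Vcan, Foxf1), 115 in endothelium (Cdh5, Ctla2a, Plvap) and 629 in erythroid (globins). A further 94 cells with at least 5 UMIs of Myb, Runx1, Fermt3 and Plek and none of those shares are called Runx1/Myb-gated cells. No gene of the 9 was used in a gate. Independent markers were highest in their own class for 8 of 8 endoderm, 6 of 7 mesoderm, 8 of 8 endothelium and 5 of 6 erythroid genes. Of 9 progenitor markers only 3 were highest in the Runx1/Myb-gated cells, their summed level was higher in endothelium (242 to 352 CPM, UMIs of a gene divided by all gene UMIs of the class and multiplied by 1000000) than in the gated cells (93.6 to 190), and 6 erythroid markers summed there to between 856 and 1074, against 1488 to 1802 in erythroid cells. The gated cells are therefore named by their rule and not as progenitors. The erythroid share of cells was lowest in tagged sample 1 (17.6%) and highest in tagged sample 3 (47.6%).

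Of the 7 members with a promoter window taken, 3 had no annotated exon in the 250 bases before the RefSeq start (GRCm38.p6). The sequences of these 3 are shown, since Epor and the pair Csf1 and Cxcl12 gave the class patterns described below. Capitals mark the GATA element AGATAA and the GC box GGGCGG, searched on both strands together with the E-box CAGCTG and the TATA element TATAAA. Epor, on the minus strand at chr9:21963577-21963826, is given first. Csf1 lies on the minus strand at chr3:107760470-107760719 and Cxcl12 on the plus strand at chr6:117168285-117168534.
Epor: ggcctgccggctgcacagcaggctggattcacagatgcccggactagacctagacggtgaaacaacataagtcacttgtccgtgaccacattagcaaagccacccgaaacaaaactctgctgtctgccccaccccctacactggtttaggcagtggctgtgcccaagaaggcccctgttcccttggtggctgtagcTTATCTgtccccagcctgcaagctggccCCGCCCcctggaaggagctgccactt
Csf1: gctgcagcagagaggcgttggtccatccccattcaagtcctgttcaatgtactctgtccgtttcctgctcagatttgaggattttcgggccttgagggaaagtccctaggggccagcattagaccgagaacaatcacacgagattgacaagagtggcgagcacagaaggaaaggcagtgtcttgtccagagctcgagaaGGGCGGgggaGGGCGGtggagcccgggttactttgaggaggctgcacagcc
Cxcl12: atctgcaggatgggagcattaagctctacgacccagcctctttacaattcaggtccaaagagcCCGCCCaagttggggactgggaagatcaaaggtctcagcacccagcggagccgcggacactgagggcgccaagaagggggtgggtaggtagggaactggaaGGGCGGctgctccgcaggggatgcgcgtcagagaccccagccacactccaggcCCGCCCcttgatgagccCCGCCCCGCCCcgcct
The Epor window held 1 GATA element, starting at position -54 from the start, and 1 GC box. The Csf1 window held 2 GC boxes and the Cxcl12 window 5, of which 2 share a letter. Neither window held a GATA element, and none of the 3 held the E-box or the TATA element in these letters. Among 32851 RefSeq promoter windows of the same length, 9.99% held the GATA element, 32.7% the GC box, 13.0% the E-box and 12.4% the TATA element. These matches describe letters in a window and show no binding.

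**Figure D1:**
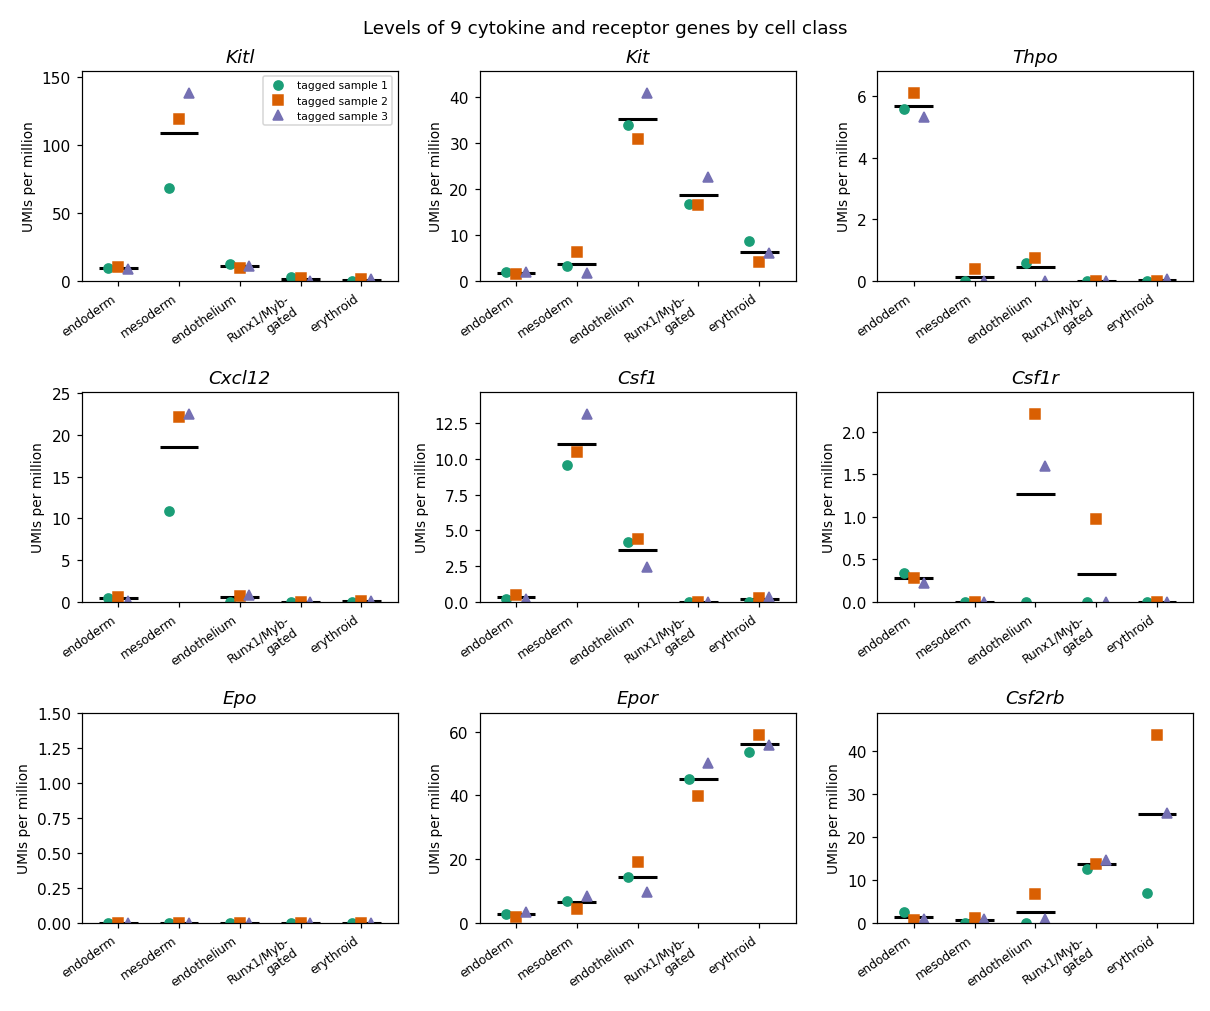
CPM (vertical axis, linear, a scale of its own for each gene) of the 9 genes in the 5 cell classes, with 1 point per tagged sample and a bar at the mean of the 3. Kitl, Csf1 and Cxcl12 stand highest in mesoderm, Thpo in endoderm, Kit in endothelium, Epor in erythroid cells, and Epo lies at 0 throughout.

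Kitl encodes stem cell factor, the ligand of the receptor tyrosine kinase Kit, and it was highest in mesoderm. In GENCODE M21 (GRCm38), Kitl spans chr10:100015630-100100416 on the plus strand. Levels are CPM from the UMIs summed over the cells of a tagged sample and class. In mesoderm the level of Kitl was 68.7, 119 and 138 in tagged samples 1, 2 and 3 (109 ± 36.0, SD, n = 3). Endothelium had 12.5, 9.56 and 11.2, and endoderm had 9.74, 10.2 and 8.39. Every mesoderm value thus lay above every value of the other classes, while the ranges of endothelium and endoderm overlapped. Runx1/Myb-gated cells had 2.62, 1.94 and 0, from 7 UMIs, and erythroid cells 0 to 1.19, from 32 UMIs.

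In edgeR's quasi-likelihood test over all 15 sums, with Benjamini-Hochberg adjustment over all tested genes, Kitl was higher in mesoderm than in endothelium by 3.20 log2 units (SE 0.31, adjusted p = 1.33e-07). Against endoderm the difference was 3.29 (SE 0.24, adjusted p = 3.91e-10). Both calls held in all 16 alternatives run. Endothelium and endoderm did not differ past the threshold (0.09, SE 0.37, adjusted p = 0.841), and the endoderm level was above that of the gated cells by 2.74 (adjusted p = 0.000669). The order was therefore mesoderm, then endothelium and endoderm together, then the blood classes, of which gated and erythroid cells did not differ past the threshold (0.33, SE 0.90, adjusted p = 0.875).

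Within mesoderm, Kitl was read both in cells with 10 or more UMIs of the contractile genes Myl7, Actc1, Ttn and Tnnt2 and in the remaining cells. The contractile cells, 10, 9 and 8 in number, had 113, 116 and 197 CPM, and the remaining cells had 60.0, 120 and 128. The contractile cells were higher in tagged samples 1 and 3 and not in tagged sample 2. The low mesoderm value of tagged sample 1 was found in its remaining cells.

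Thpo encodes thrombopoietin, a ligand that acts on megakaryocytes and stem cells and that the liver makes in later life (GRCm38 chr16:20724454-20734511 on the minus strand). It was found almost wholly in the endoderm class, at 5.60, 6.099 and 5.34 CPM (5.68 ± 0.387, SD, n = 3). The 187 endoderm UMIs stood against 1 in mesoderm, 2 in endothelium, none in the gated cells and 1 in erythroid cells. All 3 endoderm values lay above every other value. The pooled ratio of endoderm to endothelium was 12.3 (95% exact counting interval 3.37 to 103), to mesoderm 41.0 (7.26 to 1626) and to erythroid cells 183 (32.4 to 7259). Against the gated cells Thpo was at least 8.93-fold higher, from a floor of 3 UMIs over that class. Such intervals and floors cover counting error only. Unthinned, 25.8% of 559 endoderm cells held a Thpo UMI, against 0.159% of 629 erythroid cells, at median depths of 56338 and 47771 UMIs. Each of the 4 edgeR comparisons of endoderm with another class was called (adjusted p from 4.69e-09 to 7.11e-05).

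Csf1, the ligand of the macrophage receptor Csf1r (GRCm38 chr3:107741048-107760469 on the minus strand), was highest in mesoderm, at 9.55, 10.5 and 13.1 CPM (11.1 ± 1.86, SD, n = 3). Endothelium followed at 4.16, 4.41 and 2.40. No value of endothelium reached the lowest mesoderm value. The difference was 1.49 log2 units (SE 0.41, edgeR adjusted p = 0.00856), a call lost when tagged sample 3 was left out (1.16, adjusted p = 0.157). Endothelium was itself above endoderm by 3.24 (SE 0.57, adjusted p = 9.44e-05). Endoderm and erythroid cells held 11 and 8 UMIs in all and the gated cells none, so that Csf1 in mesoderm was at least 17.2-fold above the gated cells.

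Cxcl12, the chemokine that holds blood stem and progenitor cells in their niche through the receptor Cxcr4 (GRCm38 chr6:117168535-117181367 on the plus strand), was read mainly in mesoderm. Its level there was 10.9, 22.2 and 22.5 CPM (18.5 ± 6.59, SD, n = 3), from 134 UMIs. Endoderm had 0.448, 0.624 and 0.109, from 14 UMIs, and endothelium, gated and erythroid cells held 2, 0 and 2 UMIs. Mesoderm was apart from all other classes in every tagged sample. It was above endoderm by 5.15 log2 units (SE 0.43, edgeR adjusted p = 1.06e-08), and the pooled ratio to endothelium was 40.4 (10.96 to 337). Cxcl12 in mesoderm was at least 29.2-fold above the gated cells. For both Kitl and Cxcl12 tagged sample 1 was the lowest of the 3 in mesoderm, and the summed level of the 7 mesoderm markers ran from 505 to 902.

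Epo, the ligand of Epor (GRCm38 chr5:137483020-137533242 on the minus strand), gave no UMI in any of the 1817 cells, 0 of 88013181 UMIs. That allows a level of up to 0.0341 CPM over all cells and a share of up to 0.165% of cells with a UMI. In the endoderm class alone, 0 of 32540566 UMIs allows up to 0.0922. Epo did not pass the low-count filter, and no difference between classes was detectable at this depth.

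Kit, which erythroid, mast and stem cell lineages carry (GRCm38 chr5:75574916-75656722 on the plus strand), was highest in the endothelium class. Its level was 33.8, 30.9 and 40.8 CPM in endothelium (35.2 ± 5.09, SD, n = 3), from 150 UMIs in 115 cells. The gated cells had 16.7, 16.5 and 22.7 (18.6 ± 3.52), and erythroid cells 8.57, 4.11 and 6.02 (6.23 ± 2.24). These 3 classes did not overlap with each other. Mesoderm had 3.18, 6.22 and 1.70 and endoderm 1.90, 1.52 and 1.96, and their ranges overlapped. Kit and its ligand gene Kitl were thus highest in different classes.

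Kit in endothelium was above endoderm by 4.15 log2 units (SE 0.29, edgeR adjusted p = 2.52e-10) and above mesoderm by 3.29 (SE 0.33, adjusted p = 1.71e-07), in all 16 alternatives. Above erythroid cells it stood by 2.27 (SE 0.25, adjusted p = 2.25e-07), also in all 16. The smaller difference from the gated cells, 0.85 (SE 0.27, adjusted p = 0.0141), was lost when tagged sample 1 (0.78, adjusted p = 0.0768) or 3 (0.92, adjusted p = 0.0531) was left out and after thinning the sums (0.74, adjusted p = 0.0671). The gated cells were above erythroid cells by 1.42 (SE 0.28, adjusted p = 0.00150), a call lost when tagged sample 3 was left out (1.25, adjusted p = 0.0677). Erythroid cells were above mesoderm by 1.02 (adjusted p = 0.0157), but leaving out tagged sample 1 (0.76, adjusted p = 0.128) or 3 (0.65, adjusted p = 0.207) ended the call, as did library size scaling (0.63, adjusted p = 0.133) and thinning (0.46, adjusted p = 0.585). Mesoderm and endoderm did not differ past the threshold (0.87, SE 0.41, adjusted p = 0.0746). Without tagged sample 3 they did (1.29, adjusted p = 0.0325), as they did with library size scaling (1.09, adjusted p = 0.0292) and upper-quartile scaling (0.996, adjusted p = 0.0434).

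Some endothelium cells also carried UMIs of the genes that gate the Runx1/Myb cells. In the 44 endothelium cells with 2 or more such UMIs the level of Kit was 34.6, 38.5 and 48.4 CPM, and in the 71 cells with fewer it was 32.7, 21.5 and 34.7. Within each tagged sample Kit was higher in the first group, by little in tagged sample 1, and no test of this was made. The ranges just overlapped, and Kit was present in both groups of cells. Runx1, a transcription factor needed for blood formation from endothelium, ran from 62.3 to 135 in the first group and from 0 to 7.12 in the second. Since Runx1 is itself among the genes that made the split, its difference was set in advance and tells nothing about Kit. With the first group left out, an alternative chosen after the data had been seen, Kit in endothelium was 29.6 and its difference from the gated cells did not pass (0.61, adjusted p = 0.134). Median depth also differed between them, at 50836, 59183 and 37336 UMIs per cell in the first group and 35859, 17847 and 21386 in the second, and its part in the result was not tested.

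**Figure D2:**
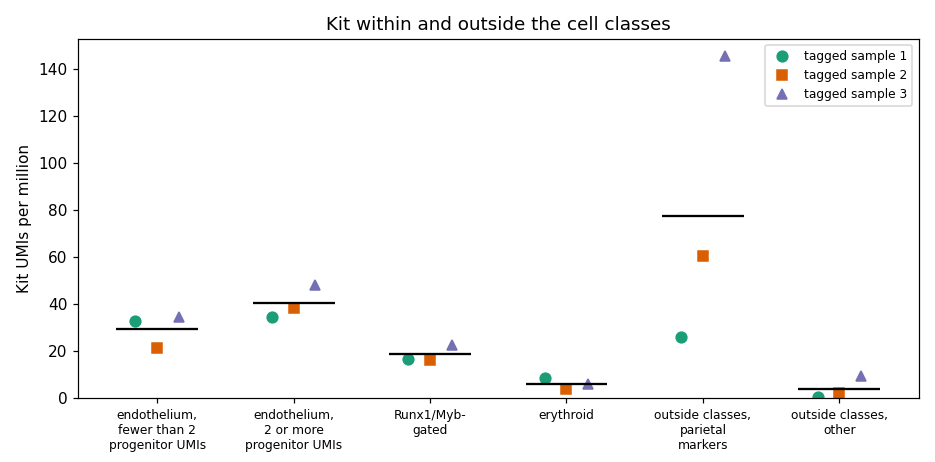
Kit CPM (vertical axis, linear) in endothelium cells split by UMIs of Myb, Runx1, Fermt3 and Plek, in the gated and erythroid classes, and in cells outside all classes with and without parietal endoderm markers, with 1 point per tagged sample and a bar at the mean. Both endothelium groups lie at 21.5 or above, and the 3 points of cells with parietal markers spread from 26.2 to 146.

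Csf1r, the receptor for Csf1 on macrophages, gave 17 UMIs in the cells that passed the filters. Endoderm held 9, always 1 in a cell, endothelium 5, the gated cells 1, and mesoderm and erythroid cells none. Over all endoderm UMIs this was 0.277 CPM, and Csf1r did not pass the low-count filter. Among the macrophage markers Cx3cr1, Adgre1, Cd68, Tyrobp, Fcer1g, C1qa and Lyz2, 6 cells had 10 or more UMIs in all, and 4 of these had Csf1r, with 6 of the 17 UMIs. Of the 1734 other cells 11 had it. The 6 cells were gated as endothelium (4), Runx1/Myb cells (1) or none (1). The full list of 8 macrophage markers, Mrc1 included, summed to between 87.9 and 170 CPM in endothelium, where Adgre1 and C1qa were at 0. Mrc1 made up 110 of it, and the list reached 4.58 to 5.54 in endoderm. In tagged sample 2, an endothelium cell with 3 Csf1r UMIs had 15 UMIs of the macrophage markers without Mrc1. In tagged sample 3, an endothelium cell with 1 Csf1r UMI had 22 such UMIs, and another with 1 had 3. The part of macrophage-like cells in the endothelium value of Csf1r was not tested.

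Epor, the erythropoietin receptor (GRCm38 chr9:21958897-21963506 on the minus strand), was highest in erythroid cells and next in the gated cells. Its level was 53.5, 58.9 and 55.8 CPM in erythroid cells (56.1 ± 2.71, SD, n = 3) and 45.0, 39.8 and 50.1 in the gated cells (44.9 ± 5.14). Endothelium had 14.2, 19.1 and 9.60, mesoderm 6.82, 4.28 and 8.48, and endoderm 2.57, 1.80 and 3.38. No neighbours in this order overlapped. Erythroid cells were above endothelium by 2.26 log2 units (SE 0.20, edgeR adjusted p = 1.17e-08), and the gated cells were above endothelium by 1.70 (SE 0.23, adjusted p = 6.65e-06), both in all 16 alternatives. Endothelium was above mesoderm by 1.24 (SE 0.31, adjusted p = 0.00363), a call lost on leaving out tagged sample 2 (0.76, adjusted p = 0.0959) or doubling the share thresholds (0.83, adjusted p = 0.0711). Mesoderm was above endoderm by 1.15 (SE 0.31, adjusted p = 0.00313), which was lost after thinning (1.44, adjusted p = 0.0783).

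The step from gated to erythroid cells was the smallest, at 0.57 (SE 0.16, edgeR adjusted p = 0.0229). Leaving out tagged sample 1 ended the call (0.59, adjusted p = 0.0528), as did leaving out 2 (0.46, adjusted p = 0.145) or 3 (0.66, adjusted p = 0.0712). Thinning ended it as well (0.62, adjusted p = 0.0828). Scaling by library size ended it too (0.31, adjusted p = 0.186) and shifted all genes of that comparison by a median of -0.26. Per non-globin UMI the erythroid level was 60.8 ± 3.76 and that of the gated cells 45.6 ± 5.33.

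Csf2rb encodes the beta chain shared by the receptors for interleukin 3, interleukin 5 and granulocyte-macrophage colony-stimulating factor (GRCm38 chr15:78325752-78353847 on the plus strand). It was read mainly in blood cells, with a wide spread between tagged samples. Erythroid cells had 6.95, 43.6 and 25.4 CPM (25.3 ± 18.3, SD, n = 3), and the gated cells 12.6, 13.6 and 14.6 (13.6 ± 1.002). The gated values lay close together, while tagged sample 1 was low and tagged sample 2 high in erythroid cells. Endothelium had 0, 6.62 and 0.800, mesoderm 0, 1.17 and 0.848, and endoderm 2.35, 0.693 and 0.763. Csf2rb2 is a near-identical neighbour of Csf2rb. How reads that match both genes affect the counts was not tested, so both levels are uncertain. Csf2rb2 was at 2.19 ± 1.18 in erythroid cells, with tagged sample 1 lowest at 0.927 and tagged sample 2 highest at 3.27.

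Csf2rb in erythroid cells was above endoderm by 4.64 log2 units (SE 0.54, edgeR adjusted p = 2.06e-07), above mesoderm by 5.59 (SE 0.84, adjusted p = 8.79e-06) and above endothelium by 3.81 (SE 0.78, adjusted p = 0.000301). Gated cells were above endothelium by 2.56 (SE 0.999, adjusted p = 0.0401), a call lost on leaving out tagged sample 3 (2.14, adjusted p = 0.220) or removing Scrublet calls (2.56, adjusted p = 0.0561). Erythroid and gated cells overlapped and did not differ past the threshold (1.25, SE 0.52, adjusted p = 0.131). Without tagged sample 1 they did (1.54, adjusted p = 0.00539), as they did with no low-count filter (1.37, adjusted p = 9.84e-08) and with share thresholds doubled (1.32, adjusted p = 0.0161). Endothelium, endoderm and mesoderm were not ordered beyond their spread. The endothelium value rested on tagged sample 2: endothelium was above endoderm by 0.83 (adjusted p = 0.585) with all 3, by 2.22 (adjusted p = 0.0460) without tagged sample 1, and at -2.23 (adjusted p = 0.349) without tagged sample 2.

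The erythroid cells of each tagged sample were split into 3 groups of near equal size by the share of their UMIs in globins, which rises as primitive erythroid cells mature, and the receptors were read in CPM of non-globin UMIs. Kit was at 10.4, 8.02 and 9.03 in the low-globin groups of tagged samples 1, 2 and 3 and at 5.53, 1.51 and 4.48 in the high-globin groups. It was lower in the high-globin group in all 3. Epor was at 51.9, 66.9 and 61.3 in the low-globin groups and at 61.6, 63.0 and 62.5 in the highest, with no common direction. Csf2rb was at 3.46, 33.0 and 17.3 in the low-globin groups and at 3.46, 64.2 and 43.8 in the highest. It was higher in the high-globin group in tagged samples 2 and 3. In tagged sample 1 these groups were equal, from 4 and 5 UMIs, but the middle group was at 14.6, from 21 UMIs. Fixed bins of globin share, 3 to 6%, 6 to 9% and 9% or more, were read as well. Csf2rb was there at 7.33, 9.46 and 2.05 in tagged sample 1, the last from 1 UMI. Tagged sample 2 had 36.9, 26.5 and 64.3, and tagged sample 3 had 19.0, 13.8 and 47.4. The low and high groups had 27 cells each in tagged sample 1, 71 in tagged sample 2 and 112 in tagged sample 3. Cells are not replicates, and no test was made.

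**Figure D3:**
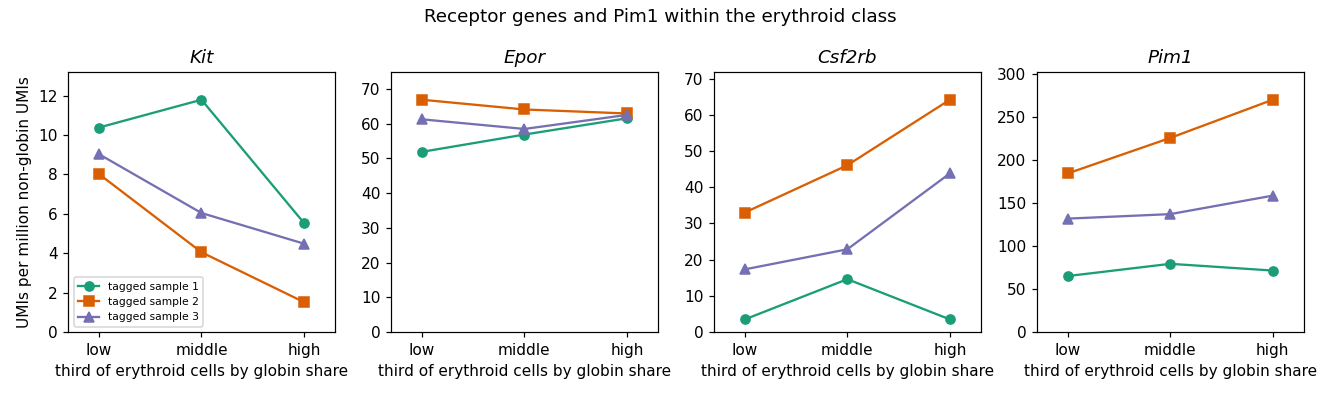
Kit, Epor, Csf2rb and Pim1 in CPM of non-globin UMIs (vertical axis, linear) in 3 groups of the erythroid cells of each tagged sample by globin share (horizontal axis), 1 line per tagged sample. Kit ends lower than it starts in each line, Epor stays between 51.9 and 66.9, and the lines of Csf2rb and Pim1 stand in the order of tagged samples 1, 3 and 2.

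The order of tagged samples seen for Csf2rb in erythroid cells, 1 lowest and 2 highest, was shared by 928 of 5791 genes at 10 or more CPM there (16.02%). Of these, 19 differed by 2-fold or more between tagged samples 2 and 1, and 4, Csf2rb itself among them, by 6.27-fold or more. Pim1, a kinase gene that cytokine receptors switch on through Stat5, was among the 19, at 67.6, 207 and 130. It was picked from 9 genes at 10 or more CPM there, out of the signalling and target lists described below. Only 3 of these 9, Pim1, Podxl and Jak1, had this order, and only 1, Pim1, differed by 2-fold or more. Jak2 and Stat5b did not have it. Median globin share of the erythroid cells moved with this order, at 5.52%, 8.95% and 8.02%, and its part in the differences was not tested. Epor had this order too, but differed only 1.10-fold.

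Shares of cells with a UMI were compared after thinning every cell to 10000 UMIs, which left out 28 endoderm, 13 mesoderm, 15 endothelium, 1 gated and 7 erythroid cells. Kitl was then found in 60.2% of mesoderm cells (95% exact binomial interval 52.8 to 67.3), against 10.0% of endothelium (4.90 to 17.6) and 8.47% of endoderm (6.25 to 11.2). Epor was found in 42.3% of erythroid (38.4 to 46.3) and 37.6% of gated cells (27.8 to 48.3), and in 1.13% of endoderm cells. All these intervals treat cells as independent and cover counting error only. Between tagged samples the Epor share ran from 41.2% to 43.75% in erythroid and from 32.4% to 42.9% in gated cells. Those ranges overlap. Kit was found in 26.0% of endothelium (17.7 to 35.7), 20.4% of gated (12.8 to 30.1) and 5.63% of erythroid cells (3.95 to 7.74), with 1.51% in endoderm. Endoderm had the lowest share for both Kit and Epor, and whether its UMIs came from free RNA was not tested. Thinned to 20000 UMIs instead, Kit was found in 47.6% of endothelium (36.6 to 58.8), 28.0% of gated and 2.94% of endoderm cells, and Epor in 66.2% of erythroid, 50.5% of gated and 3.52% of endoderm cells. Thinned to 10000 UMIs, Csf2rb was found in 15.4% of erythroid and 15.1% of gated cells, pooled over tagged samples. Between tagged samples the share ran from 7.59% to 21.6% in erythroid and from 9.52% to 20% in gated cells. The levels, as means over tagged samples, were 25.3 and 13.6. Up to 29 Csf2rb UMIs were read in 1 erythroid cell and up to 12 in 1 gated cell. Unthinned, 80.4% of mesoderm cells held Kitl, 91.3% of erythroid cells Epor, 53.0% of endothelium cells Kit and 34.98% of erythroid cells Csf2rb. Median depths were 34959 UMIs in mesoderm, 35699 in endothelium, 48216 in gated and 47771 in erythroid cells.

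**Figure D4:**
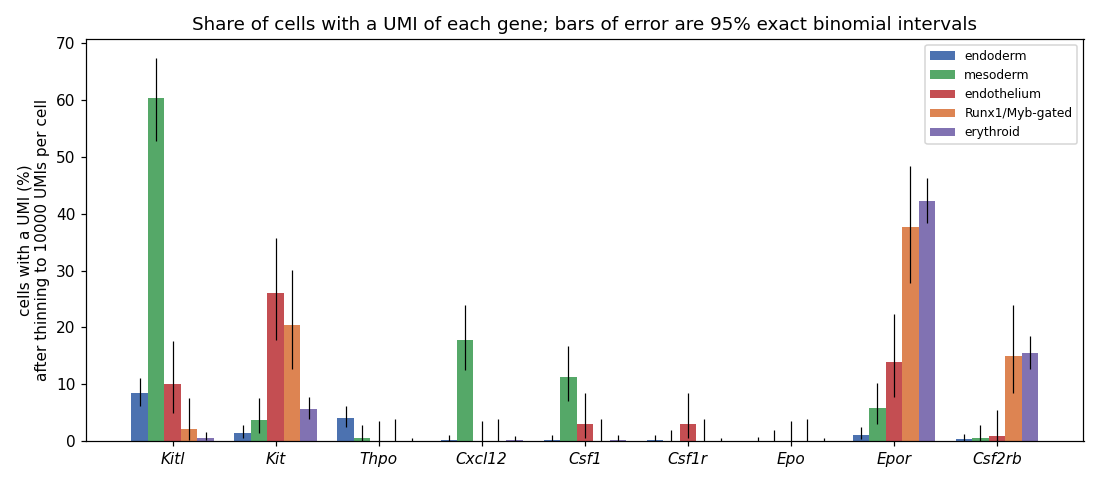
Percent of cells of each class with at least 1 UMI of each gene (vertical axis, from 0) after thinning every cell to 10000 UMIs, with 95% exact binomial intervals that cover counting error only. Kitl in mesoderm (60.2%) and Epor in erythroid (42.3%) and gated cells (37.6%) have the tallest bars.

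Within single cells, Kit and Epor were read together in 37 of the 46 gated cells with Kit (80.4%), and 79.2% of the gated cells without Kit had Epor. In endothelium 39.3% of cells with Kit and 37.0% of those without it had Epor. Cells with and without Kit thus held Epor at close shares in both classes. In mesoderm 48.1% of cells with Kitl had Cxcl12, against 12.8% of those without Kitl, and 31.3% had Csf1, against 17.9%. These shares were not thinned, and a deeper cell is more likely to hold both genes.

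Of the 9 genes, 7 passed the low-count filter and were tested, Epo and Csf1r being too low. Between 14.0% and 73.6% of all tested genes were called in a comparison of 2 classes, and the counts of members stand against that background. Between mesoderm and endoderm 5 of 7 were called, where 64.1% of all 10450 tested genes were. Between endothelium and endoderm it was 4 of 7 (all genes 62.0%), between gated cells and endoderm 5 of 7 (64.5%) and between erythroid cells and endoderm 6 of 7 (73.6%). Against mesoderm, endothelium had 5 of 7 (37.2%), gated cells 6 of 7 (54.2%) and erythroid cells 6 of 7 (65.8%). Against endothelium, gated cells had 5 of 7 (49.3%) and erythroid cells 5 of 7 (61.1%). Between erythroid and gated cells 2 of 7 were called (14.0%), Epor higher and Kit lower. By role, the ligands Kitl, Csf1 and Cxcl12 were each lower in endothelium, gated and erythroid cells than in mesoderm, whereas the ligand Thpo was lower in all 4 other classes than in endoderm. The receptors Epor and Csf2rb were each higher in gated and erythroid cells than in mesoderm, endoderm and endothelium, whereas the receptor Kit was lower in gated and erythroid cells than in endothelium.

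The genes most alike in pattern were sought among genes with a mean of 10 or more CPM over the 15 sums. Likeness was the Pearson correlation of log2(CPM + 1) over the 15 sums, which does not measure level or size of change. These sums share libraries and fall into 5 classes, and no p is given. Kit was most like Tgfb1 (r = 0.96), Svil (0.95) and Sapcd1 (0.95), with Tgfb1 at 139 in endothelium, 78.6 in gated and 11.9 in erythroid cells. Kitl was most like Atxn7l3b (0.98), Pawr (0.98) and Sap30l (0.97). Atxn7l3b was at 338 in mesoderm and 175 in erythroid cells, where Kitl was at 109 and 0.771. Csf1 was most like Adamts9 (0.99), Pmp22 (0.98) and Basp1 (0.98), all highest in mesoderm and next in endothelium. Cxcl12 was most like Svep1 (0.99), Ccn4 (0.99) and Hoxc8 (0.99), which were at 55.1, 61.1 and 159 in mesoderm. Csf2rb was most like Redrum (0.95), which was at 34.7 in erythroid and 19.1 in gated cells. Epor was most like the ribosomal protein genes Rplp0 (0.98), Rpl30 (0.97) and Rpl31 (0.97). Rplp0 was at 6555 in erythroid cells and 3375 in endoderm, where Epor was at 56.1 and 2.58.

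The receptors of Cxcl12 were looked up among a list of 15 other receptor genes, and both were chosen after their values had been seen. Cxcr4, through which Cxcl12 signals, gave 9 UMIs in mesoderm, 2 in endoderm, 2 in endothelium, 1 in gated and none in erythroid cells. Its second receptor Ackr3, which takes the chemokine up, was highest in mesoderm at 4.96 ± 1.73 CPM. Neither passed the low-count filter.

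Of those 15 receptors 6 were tested. All 6 were higher in endothelium than in endoderm, with a median difference of 2.35 log2 units against -0.03 over all 10450 genes, of which 62.0% were called and 3100 were higher. All 6 were lower in erythroid cells than in endothelium (median -3.48 against -0.02), where 61.1% of all genes were called and 3432 were lower. Lifr, which binds leukaemia inhibitory factor, was at 48.7 ± 5.07 CPM in mesoderm, 40.4 ± 12.1 in endothelium, 4.16 ± 1.99 in gated and 1.60 ± 0.620 in erythroid cells. Its partner Il6st was at 45.1 ± 8.69 in mesoderm and 27.7 ± 6.88 in endothelium, and Il11ra1 at 24.3 ± 2.49 and 27.4 ± 4.56. In endoderm, Lifr, Il6st and Il11ra1 were at 7.24 ± 1.39, 11.9 ± 1.49 and 4.90 ± 0.591. Il2rg was at 17.7 ± 2.88 in endothelium and at 2.24 or less in each other class, Il3ra at 7.80 ± 2.33 and Csf3r at 5.72 ± 1.98 there. Among 13 other ligands none was tested, and Csf2, Il3, Il6, Il7 and Lif gave no UMI in the classes. The highest were Il15, at 7.15 ± 3.80 in endothelium, and Cxcl14, at 3.54 ± 3.69 in mesoderm with tagged sample 1 at 7.73. Flt3l had 51 UMIs in erythroid cells, at 1.61 ± 0.0174, and at most 3 in any other class.

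Of 17 genes that carry or restrain cytokine signals inside the cell, 15 were tested. In endothelium 12 were higher and none lower than in mesoderm (median 1.72 log2 units against -0.06 over all genes, of which 37.2% were called, 1917 of 10450 higher). In erythroid cells 1 was higher and 12 lower than in endothelium (-1.66 against -0.02, with 61.1% of all genes called). Jak1, a Janus kinase, was at 149.6 ± 12.2 CPM in endothelium and 19.2 ± 1.17 in erythroid cells. Lyn, a Src family kinase, was at 67.96 ± 2.65 in endothelium, 28.8 ± 14.03 in gated and 3.55 ± 0.869 in erythroid cells. Sh2b3, an adaptor that dampens cytokine receptor signals, was at 37.5 ± 3.44 in endothelium and at a mean of 9.54 or less elsewhere. Grb2, Ptpn11 and Cbl had class means between 16.01 and 95.04. The genes that act directly under Epor were added after their values had been seen. Jak2 was highest in endothelium at 30.6 ± 9.80, against 10.05 ± 0.701 in erythroid cells. Stat5b was at 25.7 ± 5.13 in gated and 17.6 ± 0.857 in erythroid cells, and Stat5a at 8.17 ± 2.13 and 2.92 ± 0.483. Stat5a was lower in erythroid than in gated cells (-1.18, edgeR adjusted p = 0.0120), and Jak2 and Stat5b did not pass there (-0.10, adjusted p = 0.865, and -0.32, adjusted p = 0.339).

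Of 8 target and feedback genes 6 were tested, and none was called between erythroid and gated cells, where 14.0% of all genes were. Pim1 was at 135 ± 69.5 in erythroid and 101 ± 11.04 in gated cells (adjusted p = 0.119). Pim1 was higher in erythroid cells than in endothelium by 1.83 log2 units (SE 0.33, edgeR adjusted p = 6.91e-05), 1 of 6 genes in that direction against 4 lower, with 61.1% of all genes called. The feedback inhibitor Socs2 was highest in endothelium, at 14.98 ± 2.62, and was lower in erythroid cells (-1.49, adjusted p = 0.000676). Socs3 was at 14.3 ± 14.8 in endothelium and 9.44 ± 0.887 in mesoderm, and at 0.872 or less in the other classes. Bcl2l1, a survival gene, was at 32.4 ± 8.66 in endothelium and 7.89 ± 0.848 in erythroid cells, and Podxl, a surface sialomucin, was highest in endoderm at 228 ± 35.96. Socs1 was highest in mesoderm at 6.86 ± 0.438. These genes were chosen as known targets in other cells, and no link to the receptors was tested here.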

How the data were processed

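The values are UMI counts, not normalized, that the authors deposited as 1 matrix per tagged sample. Per the file headers, Cell Ranger 6.1.2 made them, and each has 30970 gene rows and 6 tag rows. The submitters' processing notes name the builds GRCm38 and mm10. The sources used here do not give how cells were assigned to tags. The 9 genes and all lists were chosen with earlier results of these data known.

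A cell was kept if it had 500 or more genes and no more than 10% of its UMIs from mitochondrial genes (77 failed). Gates were shares of UMIs of at least 0.3% for endoderm, 3% for erythroid, 0.04% for endothelium and 0.03% for mesoderm, and 5 UMIs for Runx1/Myb-gated cells. The 50 cells in 2 classes and 94 in none were left out of comparisons. Doublets were otherwise kept, and Scrublet removal was an alternative. The 15 sums of counts (tagged sample by class) were fitted together in edgeR 4.0.16 (R 4.3.3), after filterByExpr and TMM scaling, by two-sided quasi-likelihood tests (glmQLFit, glmQLFTest), called at an adjusted p of 0.05. The SE printed with an edgeR difference is the absolute log2 difference divided by the square root of the test's F statistic. DESeq2 1.42.0 was an alternative. Classes of the same tagged sample are paired by origin. Deviations from class means correlated across 10450 genes by 0.00238 to 0.150, where genes are not independent replicates. The number of sums per class, 3, limits precision. Named genes were the 9 members, up to 6 genes per list with the highest class mean, and the 3 most alike genes per member, of which some are not reported here. Gene positions were checked in GENCODE M21. RefSeq promoter windows were taken for 7 members, and Csf1r was left out of that search. Python tools were scanpy 1.11.5 and scipy 1.17.1.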

Additional observations from a re-analysis of the deposited data

Results flagged for a closer look

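Kit, pooled over tagged samples, was above its pooled level in every class in some cells that the comparisons did not use. Among the 94 cells outside all classes, 26 had at least 0.1% of their UMIs in the parietal endoderm markers Lamb1, Sparc, Thbd and Stra6, and they held 50 Kit UMIs in 14 cells, 66.3 CPM, against 34.9 in the pooled endothelium class. The remaining 68 cells held 7 Kit UMIs (2.34 CPM). The 4, 19 and 3 cells of tagged samples 1, 2 and 3 had 26.2, 60.7 and 146 CPM of Kit, from 3, 33 and 14 UMIs, so 2 of the 3 values rest on few cells. In tagged sample 1 Thbd and Stra6 were at 0 in these cells, whereas they were at 69.9 and 121 in tagged sample 2 and at 198 and 62.5 in tagged sample 3. The germ cell markers Dppa3, Nanog, Pou5f1 and Ddx4 were at 0 in all 26 cells, as were the trophoblast markers Tpbpa, Prl3d1, Ascl2 and Tfap2c, while Plac1 gave 9 UMIs. In the remaining 68 cells Ascl2 and Tfap2c gave 491 and 490 UMIs. Kitl was at 21.1 CPM in these 68 cells when pooled, but at 2.29, 71.5 and 0 in tagged samples 1, 2 and 3. In tagged sample 2, 6 of these cells held 59 Kitl UMIs. Epor gave 22 UMIs in the 68 cells, 14 of them in tagged sample 3. In the 26 cells with parietal endoderm markers Kitl was at 11.9 CPM, and Epor gave 1 UMI. The part of these marker genes' cell type in the Kit level was not tested.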

How the results depend on the processing

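Each count of called genes was recomputed under 16 alternatives, and 153 of 160 stayed within 1.5 times. With sums thinned to the smallest, the count between mesoderm and endoderm went from 6694 to 4431, between erythroid cells and endoderm from 7690 to 5023, and between erythroid and gated cells from 1462 to 798. The last count was 2470 with library size scaling, 2482 with share thresholds doubled, and between 609 and 1483 with 1 tagged sample left out (609 without 3, 647 without 2). The replicate block, a term for the tagged sample, moved that count to 1612 and changed no call of a member. Library size scaling moved the median of all genes by up to -0.39 log2 units (erythroid against mesoderm). It took the share of calls that were higher from 49.5% to 63.3% between mesoderm and endoderm, from 44.0% to 22.9% between erythroid cells and mesoderm, from 46.2% to 29.2% between erythroid cells and endothelium and from 49.2% to 9.07% between erythroid and gated cells. Upper-quartile scaling took it from 46.0% to 56.5% between gated cells and endoderm. Alternatives were run on 44 of the member comparisons, those of the highest class with each other class and of neighbours in the class order where 1 class held 10 or more UMIs. Of these 44, 36 were called, 27 of them in every alternative run, and none of the 36 changed direction. Of 45 shares of cells, 16 moved outside their interval when thinned to 20000 in place of 10000 UMIs. The uncalled differences that changed sign were small or rested on few UMIs. Kitl in endothelium against endoderm (0.09) was -0.066 with thresholds halved and -0.021 to 0.25 with 1 tagged sample left out. Kitl in gated against erythroid cells (0.33) was -0.22 with thresholds halved and -0.93 to 1.31 with 1 tagged sample left out. Csf1 in endoderm against erythroid cells (0.24) was -0.82 with Scrublet calls removed and -0.24 to 0.73 with 1 left out. Csf2rb in endoderm against mesoderm (0.95) was -0.24 to 1.98 with 1 left out, and in endothelium against endoderm (0.83) it was -1.79 with thresholds doubled, -1.34 without endothelium cells holding 2 or more progenitor UMIs and -2.23 to 2.22 with 1 left out. Cxcl12 in endothelium against endoderm, at -0.00185, was 0.085 with the replicate block, 0.078 with DESeq2, 0.13 with library size scaling, 0.090 with upper-quartile scaling, 0.47 with Scrublet calls removed, 0.037 without cells under 10000 UMIs, 0.086 without those endothelium cells, and -0.83 to 0.69 with 1 left out. Cxcl12 in erythroid cells rests on 2 UMIs, and its call against endoderm (adjusted p = 0.0314) was lost in 5 of 15 alternatives. Depth limits Epo and Csf1r, which could not be tested.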
